A study of Mus musculus with 17 samples.

Results

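Genes that are commonly read as transcriptional outputs of ERK signalling were followed through mouse embryonic stem cells held with or without a MEK inhibitor. The 10 are the PEA3-type ETS factors Etv1, Etv4 and Etv5, the zinc finger factors Egr1 and Egr2, the AP-1 components Fos, Fosl1, Jun and Junb, and the immediate early gene Ier3. The 10 genes were taken by symbol, matched through GENCODE M21 to the Ensembl identifiers of the count files, and all 10 were found among the 47729 genes counted. ERK phosphorylation is not measured by these files, and the comparisons below are between media with and without the inhibitor.

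Polyadenylated RNA was sequenced from the ES cell lines R1 and CGR8 in serum-free N2B27 medium with LIF, which every group shared. L2i also held the GSK3 inhibitor CHIR99021 (3 uM) and the MEK inhibitor PD325901 (0.1 uM). LIM held PD325901 (0.1 uM) and the Wnt inhibitor IWP2 (2 uM), and LFAI held FGF2 (12 ng/ml), Activin A (20 ng/ml) and IWP2 (2 uM) with no PD325901. In the set with both lines, L2i, LIM, LFAI for 35 h and LFAI for 4 days each had 1 R1 and 1 CGR8 library (n = 2), and the plates were coated with gelatin and basement membrane extract. Passages in L2i were 10 (R1) and 8 (CGR8) for the L2i group, 9 and 7 before 35 h of LFAI, and 3 and 9 before 4 days. The LIM cells had 5 passages in L2i and then 4 (R1) or 6 (CGR8) in LIM, so LIM and LFAI also differ in the time since L2i. A separate R1 time course had 1 library at day 0 in L2i and on each of days 1 to 4 in LIM or in LFAI, on gelatin with fetal calf serum and with another sequencing protocol. Media differ in several agents at once, so the absence of PD325901 cannot be told apart from the added FGF2 and Activin A in any comparison of LFAI with LIM, nor from these and the exchange of CHIR99021 for IWP2 in any comparison of LFAI with L2i.

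FGF4, made by ES cells, acts through FGF receptors, RAS, RAF and MEK on the kinases ERK1 and ERK2, and PD325901 blocks the MEK step. Active ERK phosphorylates ternary complex factors at serum response elements, where the serum response factor SRF binds CArG boxes, and so switches on Egr and Fos genes within minutes. It also removes the repressor Cic from the PEA3-type Etv genes. AP-1 factors are dimers of a Fos and a Jun protein, and Jun and Ier3 also answer to stress kinases, adhesion and other inputs. DUSP6, a phosphatase of ERK, and SPRY4, an inhibitor upstream of it, are feedback genes whose transcripts are widely used as a readout of the pathway.

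Gene counts per library were 15.1 M to 22.6 M in the set with both lines and 12.9 M to 13.7 M in the time course. All 7 ES cell and epiblast markers were detected in every library of that first set, but not at constant levels. At 4 days of LFAI against L2i, 1 rose and 5 fell, beside 44.8% of all tested genes called by edgeR. Zfp42 was 68.3-fold and Nanog 31.9-fold lower there. Of the fibroblast markers, Lum was at 0 counts in 7 of the 8 libraries and Col3a1 and Dcn in 3, and the highest levels in any of the 8 were 2.57 CPM for Col1a1, 3.46 for Col1a2, 2.87 for Dcn and 19.8 for Thy1. In bulk RNA, fewer cells of a type and less RNA per cell cannot be told apart. Levels are given as TMM-scaled CPM, the share of a library's gene counts. Mean Dusp6 was 4.74 ± 0.99 CPM for L2i cells, 14 ± 0.784 for LIM, 54.9 ± 4.52 for 35 h of LFAI and 142 ± 31.3 for 4 days (SD, n = 2). A single library stood apart from its label: in the time course the library labelled LFAI day 1 had Dusp6 at 9.23 and Spry4 at 2.86 CPM, beside 9.9 and 2.22 in LIM on day 1 and 78.3 and 85.8 in LFAI on day 2. Whether that library had another label in truth or answered late cannot be told apart. Results of that day are therefore given for the library as labelled, and no result of the later days rests on it.

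Promoter sequence was read from RefSeq windows on GRCm38.p6 that run from 250 bases before to 50 after a start. Windows were matched by symbol for 7 of the 10 genes, not for Etv4, Egr1 and Fosl1. The 150 bases before the start are shown here for 3 immediate early genes with different behaviour in these data, Egr2, Fos and Jun, each written 5′ to 3′ along the gene, with motif matches in capitals.
Egr2, chr10:67537719-67537868, plus strand: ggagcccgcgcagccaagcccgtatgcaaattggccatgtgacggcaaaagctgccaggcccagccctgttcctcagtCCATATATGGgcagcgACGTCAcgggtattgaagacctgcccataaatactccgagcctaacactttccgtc
Fos, chr12:85473740-85473889, plus strand: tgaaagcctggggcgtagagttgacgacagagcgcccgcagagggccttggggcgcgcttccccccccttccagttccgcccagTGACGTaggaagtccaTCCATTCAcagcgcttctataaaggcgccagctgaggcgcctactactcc
Jun, chr4:95052223-95052372, minus strand: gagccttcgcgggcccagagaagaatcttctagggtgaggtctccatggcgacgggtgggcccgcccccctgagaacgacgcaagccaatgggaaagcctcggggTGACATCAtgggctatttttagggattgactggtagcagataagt
Egr2 has 5 such windows, and the stretch shown is from window 3. Window 1, the most 5′ of them, matched no motif searched, window 2 holds another CArG box and 3 matches to CCGGAA, and windows 4 and 5 overlap window 3. The stretch shown holds a CArG box that begins 72 bases before that window's start, and the letters ACGTCA, which are TGACGT on the other strand. It lies in an intron of longer Egr2 transcripts and overlaps 0 exons of GENCODE M21. The Fos stretch holds TGACGT, which begins 66 bases before the start, and TCCATTCA, the reverse complement of the Cic site TGAATGGA, 50 bases before it. The Jun stretch holds TGACATCA 45 bases before its start. Searched on both strands in all 32851 windows of 300 bases, a CArG box was in 1.63%, either Cic site (TGAATGAA or TGAATGGA) in 2.47%, TGACGT in 7.51% and TGACATCA in 3.62%. The last 2 motifs were added after these sequences had been read, and TGACGT is part of the full CRE TGACGTCA, which was in 1.79% of windows. The other motifs searched were CCGGAA (14.9% of windows), TGANTCA (7.81%), GCGNGGGCG (5.55%) and CTTTGA (16.0%). Of the motifs planned from the start, CTTTGA aside, only Egr2 and Fos held a match. Jun matched only TGACATCA, which was added after its sequence had been read, so that match does not set Jun apart. CTTTGA was in 1 window of Etv1 and in that of Junb. No window of Etv1 or Etv5 held a Cic site, and Etv5 and Ier3 matched no motif searched. A match is a run of letters and not evidence of binding.

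Etv1, an ETS activator on chromosome 12 (38779380-38870484, GRCm38), was higher in LFAI than in both media with PD325901. Its level was 4.78 (R1) and 5.98 CPM (CGR8) in L2i, 6.82 and 8.5 in LIM, 26.6 and 30.3 at 35 h of LFAI, and 18.4 and 15 after 4 days. All 4 LFAI libraries lay above all 4 libraries with PD325901. Etv1 rose 5.3-fold from L2i to 35 h (log2 fold change 2.41 ± 0.24 SE, adjusted p = 0.00065, edgeR quasi-likelihood test) and was 3.11-fold higher at 4 days (adjusted p = 0.00076). It was also higher than in LIM, 3.71-fold at 35 h (adjusted p = 0.0046) and 2.18-fold at 4 days (adjusted p = 0.0089, or 0.052 without the R1 library of 4 days and 0.056 without that of LIM). Between 35 h and 4 days Etv1 fell 1.7-fold (adjusted p = 0.029), and that call was lost on leaving out any 1 of the 4 libraries concerned (0.06 to 0.16). LIM and L2i did not pass the test (log2 0.52, adjusted p = 0.17).

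Etv4, the PEA3 gene itself (chromosome 11, 101769742-101785371), separated the media that hold PD325901 from each other. The level was 26.7 (R1) and 25.3 CPM (CGR8) in L2i, 1.38 and 4.99 in LIM, 41 and 49.2 at 35 h of LFAI, and 77.5 and 57.4 after 4 days. Both LIM libraries were therefore far below both L2i libraries, although both media held the same concentration of MEK inhibitor. Etv4 was 8.1-fold lower in LIM than in L2i (log2 -3.02 ± 0.44, adjusted p = 0.0026). Against LIM it was 14-fold higher at 35 h (adjusted p = 0.0041) and 21-fold higher at 4 days (adjusted p = 0.00033). Against L2i it was 2.6-fold higher at 4 days (adjusted p = 0.019), and 35 h did not pass (log2 0.79 ± 0.39, adjusted p = 0.21, though 0.03 in the fit of those 4 libraries alone). The 4-day call was lost without either L2i library (adjusted p = 0.081 and 0.088), without the R1 library of 4 days (0.1), and with the time course libraries added (log2 0.75, 0.16).

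Etv5 (chromosome 16, 22381309-22439719) was the most abundant of the 10 genes and did not follow PD325901. It was at 675 and 608 CPM in L2i, 490 and 653 in LIM, 768 and 780 at 35 h of LFAI, and 442 and 382 after 4 days, with R1 first. The 4-day libraries were the lowest and the 35 h libraries the highest, with L2i and LIM between them and overlapping each other. Etv5 fell 1.56-fold from L2i to 4 days (log2 -0.64 ± 0.16, adjusted p = 0.011) and 1.88-fold from 35 h to 4 days (log2 -0.91 ± 0.16, adjusted p = 0.0027). The first of these was lost without the R1 library of L2i (adjusted p = 0.06) or the CGR8 library of 4 days (0.07). LIM against L2i gave log2 -0.17 ± 0.16 (adjusted p = 0.5), and both LFAI groups against both media with PD325901 gave log2 -0.10 ± 0.11 (adjusted p = 0.55). Per kilobase of exon, Etv5 stood at 156 CPM in L2i against 8.37 for Etv4 and 0.404 for Etv1.

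**Figure D1:**
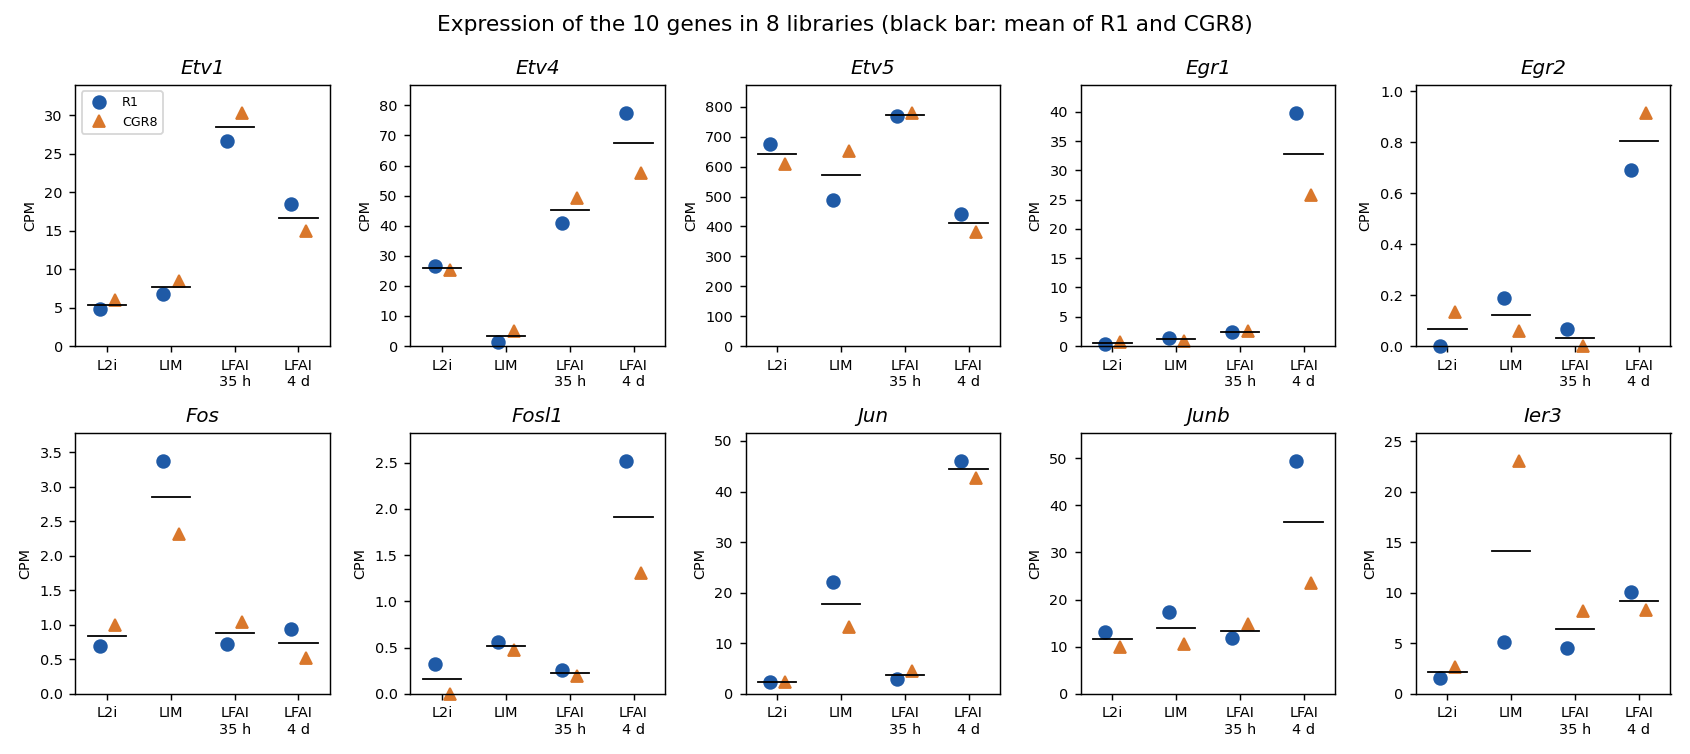
Level in CPM (vertical axis, linear, own scale per gene) of the 10 genes in each R1 and CGR8 library, by group. Blue circles are R1, orange triangles CGR8 and black bars their mean. Etv1 is high in all LFAI libraries, Etv4 is lowest in LIM, Etv5 is lowest at 4 days, and Egr1, Jun and Junb are highest at 4 days.

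Egr1, the early growth response zinc finger factor (chromosome 18, 34859823-34864984), was low with PD325901 and rose in LFAI, most of all by 4 days. Its level was 0.368 and 0.73 CPM in L2i (R1 first), 1.44 and 0.892 in LIM, 2.35 and 2.53 at 35 h of LFAI, and 39.8 and 25.7 after 4 days. The 35 h libraries lay above all media with PD325901 by little, and the 4-day libraries lay far above everything else. Egr1 was 4.56-fold higher than L2i at 35 h (log2 2.19 ± 0.44, adjusted p = 0.013) and 61.1-fold higher at 4 days (log2 5.93 ± 0.45, adjusted p = 2.7e-05). The summed counts gave a ratio of 63.8 for 4 days over L2i, with a 95% counting interval of 40.6 to 106. From 35 h to 4 days it rose 13.4-fold (adjusted p = 0.00021), and at 4 days it was 28-fold above LIM (adjusted p = 0.00012). The 35 h call did not pass in limma-voom (adjusted p = 0.073), in a fit of those groups alone (0.064), or without the R1 library of L2i (0.098) or of 35 h (0.051).

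Egr2, the related factor best known from hindbrain and myelinating cells (chromosome 10, 67535475-67542188), was barely detected. It had 2 counts in L2i, 4 in LIM, 1 at 35 h and 25 at 4 days, summed over both lines. Both 4-day libraries, at 0.692 and 0.915 CPM, lay above the other 6, which held at most 0.188. R1 and CGR8 held 0 and 0.133 CPM in L2i, 0.188 and 0.0594 in LIM, and 0.0652 and 0 at 35 h. The ratio of 4 days to L2i was 14.8 with a counting interval of 3.68 to 129 (adjusted p = 0.034), and that of 4 days to LIM was 6.57 (2.27 to 26, adjusted p = 0.098). The call against L2i was lost in DESeq2 (adjusted p = 0.13) and without the R1 library of L2i (0.17), either library of 4 days, either of LIM, or the R1 library of 35 h. The ratio of 4 days to 35 h was 24.6 on a single count at 35 h (4.03 to 1010, adjusted p = 0.031), and that call was lost in DESeq2 (0.1) and without any 1 library of 4 days, 35 h or LIM (0.053 to 0.18). Egr2 and Fosl1 entered the test only because both 4-day libraries passed the filter on low counts, so a difference at 4 days was built into their testing.

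Fos, the founding AP-1 gene (chromosome 12, 85473890-85477273), did not rise in LFAI at either time. It was at 0.689 and 0.996 CPM in L2i, 3.38 and 2.32 in LIM, 0.718 and 1.04 at 35 h of LFAI, and 0.944 and 0.523 after 4 days (R1 first), from 30, 93, 27 and 23 counts per group. Both LIM libraries, which held PD325901, were above the other 6, and those overlapped each other. At 4 days of LFAI Fos was 3.85-fold lower than in LIM (log2 -1.94 ± 0.56, adjusted p = 0.031), a call lost on leaving out any 1 of the 4 libraries (0.065 to 0.19). LIM against L2i narrowly failed (log2 1.76 ± 0.55, adjusted p = 0.055) and passed without a filter on low counts (0.048) and in limma-voom (0.038). Against L2i, LFAI gave log2 0.07 at 35 h (adjusted p = 0.95) and -0.18 ± 0.58 at 4 days (adjusted p = 0.82).

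Jun (chromosome 4, 95049034-95052222), the DNA-binding partner of Fos proteins, was high in LIM and at 4 days of LFAI and low in L2i and at 35 h. The level was 2.25 and 2.32 CPM in L2i, 22.2 and 13.3 in LIM, 2.87 and 4.48 at 35 h, and 46.1 and 42.7 at 4 days (R1 first). Both LIM libraries exceeded both 35 h libraries, although LIM held PD325901 and LFAI did not. Jun was 7.72-fold higher in LIM than in L2i (log2 2.95 ± 0.32, adjusted p = 0.00078) and 4.81-fold lower at 35 h than in LIM (log2 -2.27 ± 0.31, adjusted p = 0.0069). At 4 days it was 19.3-fold above L2i (adjusted p = 3e-05), 12-fold above 35 h (adjusted p = 1e-04) and 2.51-fold above LIM (adjusted p = 0.0099). The last call sat at the threshold or beyond it without either library of 4 days (0.051 and 0.05) or the CGR8 library of LIM (0.054). The 35 h libraries did not pass against L2i (log2 0.68, adjusted p = 0.21).

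Junb (chromosome 8, 84974484-84978718), which often restrains Jun, had similar levels in L2i, LIM and 35 h and a higher level at 4 days. It was at 13.2 and 10 CPM in L2i, 17.3 and 10.6 in LIM, 11.8 and 14.8 at 35 h, and 49.5 and 23.5 at 4 days (R1 first). The first 3 groups overlapped one another, and both 4-day libraries lay above them. Junb was 3.13-fold above L2i at 4 days (log2 1.65 ± 0.38, adjusted p = 0.0075), 2.61-fold above LIM (adjusted p = 0.025) and 2.74-fold above 35 h (adjusted p = 0.016). Without the R1 library of 4 days the log2 values were 1.02 (adjusted p = 0.06), 0.75 (0.18) and 0.82 (0.13). The calls were also lost without the CGR8 library of L2i (0.051), the CGR8 library of LIM (0.14) and the R1 library of 35 h (0.093), in that order of comparisons.

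Fosl1, which encodes the Fos-related protein FRA1 (chromosome 19, 5447547-5455946), was near 0 except at 4 days. Summed counts were 7 in L2i, 17 in LIM, 7 at 35 h and 60 at 4 days, and both 4-day libraries lay above the other 6. The level was 0.322 and 0 CPM in L2i, 0.563 and 0.476 in LIM, 0.261 and 0.195 at 35 h, and 2.52 and 1.31 at 4 days (R1 first). The ratio of 4 days to L2i was 10.1, with a counting interval of 4.62 to 26.2 (log2 3.37 ± 0.95, adjusted p = 0.019). That call was lost without the CGR8 library of L2i (adjusted p = 0.051) or the R1 library of 4 days (0.12). From 35 h to 4 days the ratio was 8.44 (3.86 to 21.9, adjusted p = 0.035), a call lost without any 1 library of 4 days, 35 h or LIM (0.055 to 0.19). Against LIM it did not pass (log2 1.87, adjusted p = 0.13, or 0.049 in the fit of those groups alone).

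Ier3, an early gene that modulates survival and the ERK pathway (chromosome 17, 35821684-35822923), differed between lines in LIM. It was at 1.56 and 2.66 CPM in L2i, 5.13 and 23.1 in LIM, 4.57 and 8.18 at 35 h, and 10.1 and 8.3 at 4 days (R1 first). L2i was below every other group, and the CGR8 library of LIM stood above all the others. Ier3 was 6.75-fold higher in LIM than in L2i (log2 2.75 ± 0.67, adjusted p = 0.022), or log2 1.3 (adjusted p = 0.14) without that library. It was 4.39-fold higher at 4 days than in L2i (log2 2.14 ± 0.66, adjusted p = 0.028). Both calls were lost in limma-voom (0.066 and 0.06) and without either L2i library (0.064 to 0.15), and the second also without either 4-day library (0.094 and 0.068). Neither LFAI group passed against LIM (log2 -0.62, adjusted p = 0.48 at 4 days), and without the CGR8 library of LIM the sign turned, to 0.84 at 4 days (0.31) and 0.31 at 35 h (0.81).

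**Figure D2:**
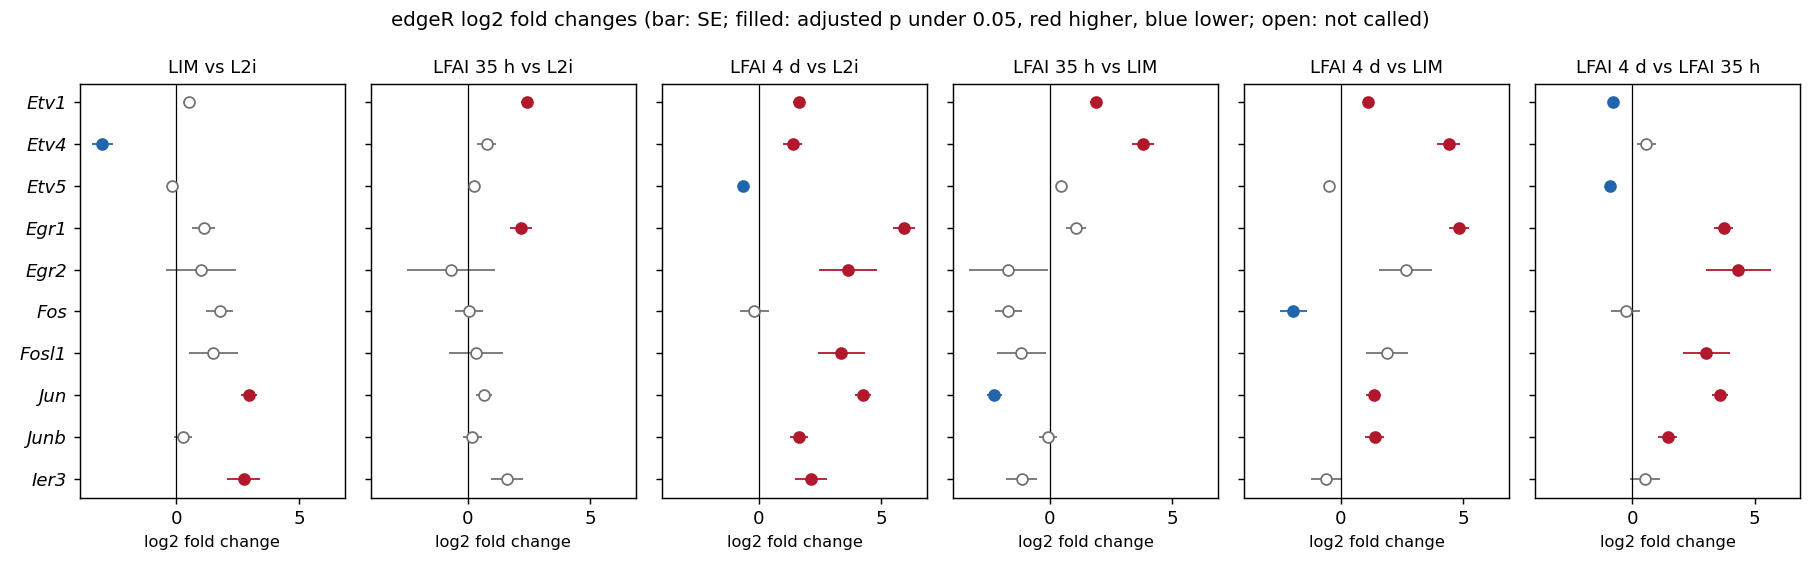
Log2 fold change (horizontal axis) of the 10 genes in 6 comparisons, with bars for the standard error from edgeR. Filled points passed an adjusted p of 0.05 (red higher, blue lower), and open points did not. The called genes number 3, 2, 9, 3, 6 and 7 from left to right.

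Counted over the 10 genes, 2 rose and 1 fell in LIM against L2i. Of all 15525 tested genes 19.1% were called there, 11.3% higher and 7.81% lower. In LFAI at 35 h against L2i, 2 rose and 0 fell, beside 14.5% of all genes called (7.35% higher, 7.16% lower). At 4 days against L2i, 8 rose and 1 fell, beside 44.8% (21.5% higher, 23.3% lower), and the 8 include Egr2 and Fosl1, which were tested only through their 4-day libraries. Against LIM, 2 rose and 1 fell at 35 h, beside 6.38% (1.92% higher, 4.46% lower), and 5 rose and 1 fell at 4 days, beside 29.5% (12.3% higher, 17.2% lower). From 35 h to 4 days, 5 rose, again with Egr2 and Fosl1, and 2 fell, beside 36.8% (17.7% higher, 19.0% lower). With both LFAI groups set against both media with PD325901, Etv1, Etv4, Egr1 and Jun rose and 0 fell, beside 25.3% of all genes called (10.3% higher, 15.0% lower). Junb passed in that comparison with the cell line as a block (log2 0.8, adjusted p = 0.021, against 0.79 and 0.059 without it). Etv1 was the only member called higher in all 4 single comparisons of an LFAI group with a medium with PD325901, as were 0.251% of all genes. Etv4 and Egr1 were so called in 3 of the 4, Jun and Junb in 2, Egr2, Fosl1 and Ier3 in 1, and Fos and Etv5 in 0. Fos, Etv5 and Jun were each called lower in 1 of them. These comparisons share libraries and are not independent. Leaving out the R1 library of 4 days cut the called genes from 9 to 4 against L2i, from 6 to 2 against LIM and from 7 to 3 against 35 h.

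In the R1 time course, where 1 library per point gives no test, intervals cover counting error only and a member is counted when it moved past 2-fold. Etv1 went from 7.97 CPM at day 0 to 14.7, 21, 19.1 and 15.7 over days 1 to 4 in LIM, and to 14, 30.4, 35.4 and 28.9 in LFAI. The day 1 value of LFAI is that of the library labelled so, and LFAI was above LIM on days 2 to 4 by a ratio of 1.45, 1.85 and 1.84. Etv4 fell from 102 CPM to 58, 45.2, 35.1 and 35.3 in LIM. In LFAI it was at 55.8, 135, 97.3 and 74.2, so the ratio to LIM was 2.98 on day 2 (counting interval 2.71 to 3.27), 2.77 on day 3 and 2.1 on day 4. Etv5 climbed in LIM from 617 to 713 CPM by day 4, and in LFAI it peaked at 794 on day 2 and ended at 487.

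Egr1 stayed below 1 CPM at every point of LIM (0.0792 to 0.526 CPM) and in LFAI was at 0.659, 2.94, 6.13 and 6.8. The day 4 ratio of LFAI to LIM for Egr1 was 22.5, with a counting interval of 8.5 to 84.2. Egr2 had at most 4 counts in any time course library, in LIM on day 4, and was below the filter. Jun was flat in LIM (2.27 to 2.61 CPM, from 2.41 at day 0), and in LFAI was at 3, 2.86, 7.43 and 11.3. On day 4 LFAI exceeded LIM by a ratio of 4.98 for Jun (counting interval 3.36 to 7.63) and 9.47 for Fosl1 (2.3 to 83.5). Junb had no steady order: LFAI was at 5.13, 7.88, 5.7 and 8.8 CPM and LIM at 4.91, 5.33, 8.64 and 4.31, from 3.73 at day 0. Fos went down to 0.232 CPM (3 counts) on day 2 of LFAI and was back at 1.43 on day 4, against 1.46 at day 0. Ier3 stayed between 7.1 and 14.6 CPM in all 9 libraries, the highest on day 2 of LIM.

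**Figure D3:**
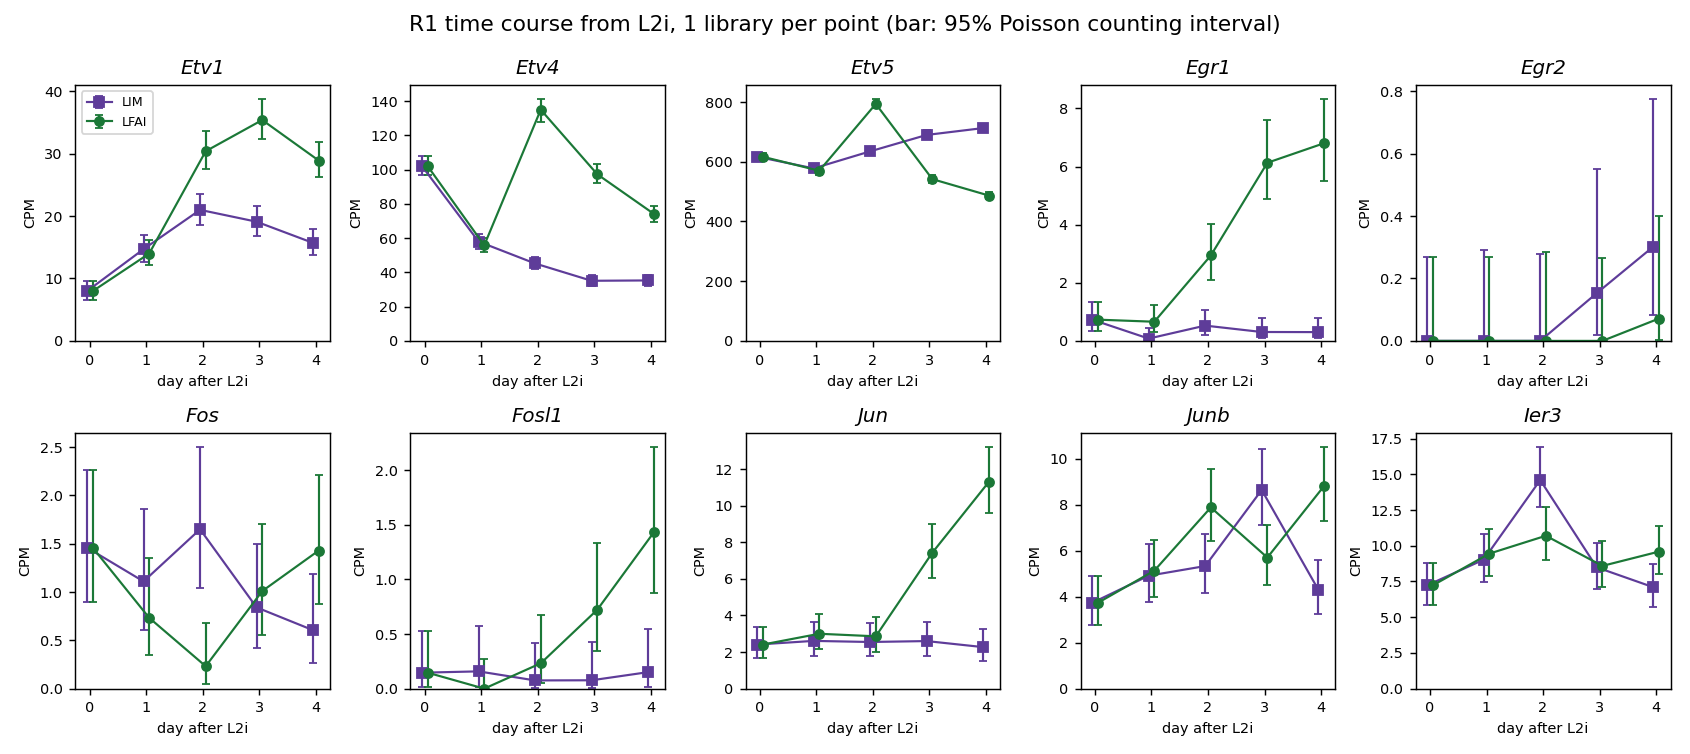
Level in CPM (vertical axis) of the 10 genes by day after L2i (horizontal axis) in the R1 time course, with LIM in purple squares and LFAI in green circles. Bars are 95% Poisson counting intervals of single libraries, and day 0 is the same library in both curves. The curves of Egr1, Jun and Fosl1 part between LFAI and LIM from day 2 or 3, and those of Etv4 and Etv1 from day 2.

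Past 2-fold from day 0 in LFAI were 0 members on day 1, beside 8.55% of all genes (4.64% higher, 3.91% lower). On day 2 there were 3 higher and 1 lower, beside 21.5% (10.6% higher, 10.9% lower). On day 3 there were 4 higher and 0 lower, beside 27.4% (14.4% higher, 13.0% lower), and on day 4 there were 5 higher and 0 lower, beside 29.7% (16.3% higher, 13.4% lower). The 5 on day 4 were Etv1, Egr1, Fosl1, Jun and Junb.

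In LIM, 1 member (Egr1, on 1 count against 10) was lower than day 0 on day 1, beside 9.72% of all genes (5.26% higher, 4.46% lower). On day 2, 2 were higher and 1 lower, beside 11.7% (6.64% higher, 5.06% lower), and on day 3 again 2 and 1, beside 14.4% (7.21% higher, 7.16% lower). On day 4, 0 were higher and 2 lower, beside 15.4% (8.11% higher, 7.26% lower). The higher genes were Etv1 and Ier3 on day 2 and Etv1 and Junb on day 3, with Etv1 at ratios of 2.63 and 2.4 to day 0. Etv4 was the lower gene on days 2 and 3 and 1 of the 2 on day 4.

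LFAI against LIM on the same day gave 1 higher and 0 lower on day 1, beside 3.59% (1.68% higher, 1.91% lower), and that was Egr1 on 9 counts against 1. It gave 2 higher and 1 lower on day 2, beside 18.8% (8.23% higher, 10.6% lower). It gave 4 higher and 0 lower on day 3, beside 25.6% (13.6% higher, 11.9% lower), and 6 higher and 0 lower on day 4, beside 27.1% (14.7% higher, 12.4% lower). The 6 on day 4 were Etv4, Egr1, Fos, Fosl1, Jun and Junb. Of these, Fos stood at 20 counts against 8, a ratio of 2.37 with a counting interval of 0.998 to 6.21. In the set with both lines Fos went the other way, 3.85-fold lower at 4 days of LFAI than in LIM. Junb was just past the threshold, at a ratio of 2.04. Etv1 did not pass 2-fold between LFAI and LIM on any day.

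The time course and the set with both lines can be set beside each other as signs of change, since they were scaled separately. From L2i to 4 days of LFAI, 9 of 10 genes had the same sign in both lines, and 8 had it in the time course as well. The exceptions were Fos, at 0.39 in R1 and -0.79 in CGR8, and Etv4, at 1.54 and 1.18 in the 2 lines and -0.46 in the time course, whose day 0 level of 102 CPM was far above the 26 ± 0.961 CPM (SD, n = 2) of L2i. The 8 with the same sign in the time course include Egr2, on 1 count against 0 there. In LIM, 8 had the same sign in both lines and 4 also in the time course, among them Fosl1 on 2 counts against 2. The share of all genes with such agreement was not computed. Jun differed from L2i by 3.23 (R1) and 2.45 (CGR8) log2 units after passages in LIM and by -0.08 after 4 days of it, and Ier3 by 1.64, 3.06 and -0.03. Fos was higher in LIM by 2.11 and 1.13 and lower by 1.09 on day 4. Egr1 in LIM differed by 1.67, 0.25 and -0.96, the last on 4 counts against 10. Sizes differed too where signs were the same. At 4 days of LFAI Egr1 rose by 6.35 (R1) and 4.92 (CGR8) log2 units but by 2.98 in the time course. Jun rose there by 4.28, 4.13 and 2.16. Coating and sequencing protocol differ between the sets, and for LIM so does the time in the medium. These cannot be told apart.

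**Figure D4:**
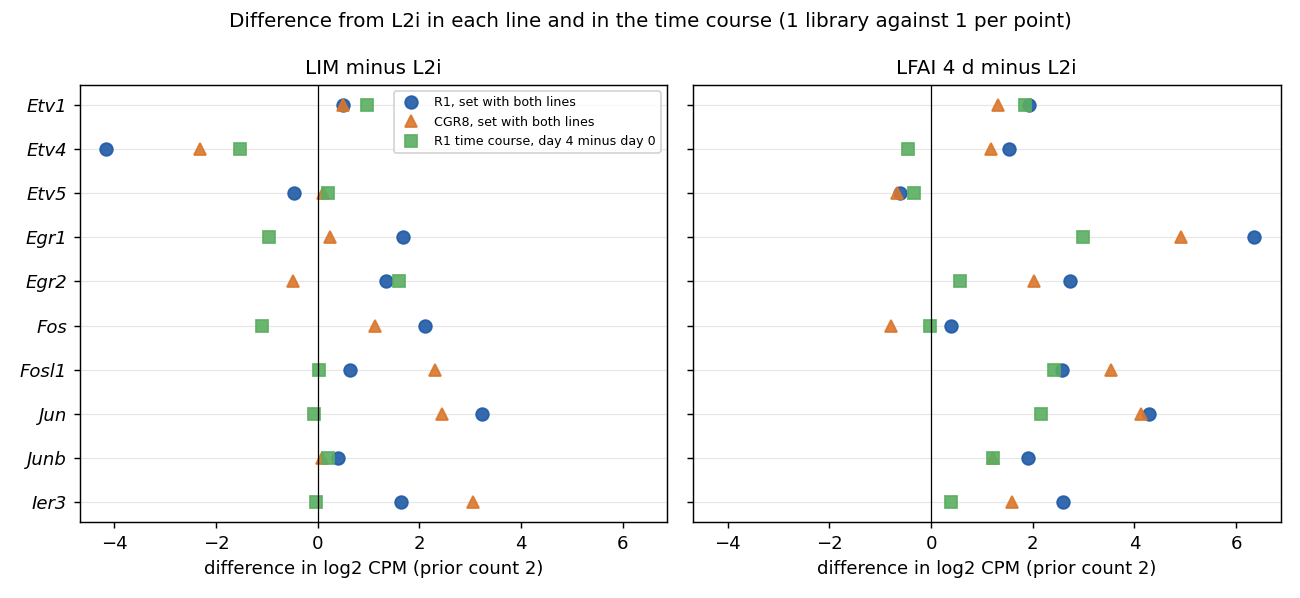
Difference in log2 CPM from L2i (horizontal axis) for the 10 genes in LIM (left) and at 4 days of LFAI (right). Blue circles are R1, orange triangles CGR8, and green squares the R1 time course (day 4 minus day 0), each 1 library against 1. The time course lies apart from both lines for Jun, Ier3, Fos and Egr1 in LIM and for Etv4, Egr1 and Jun in LFAI, among others.

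The feedback inhibitors of ERK were mostly higher without PD325901. Of 12 tested, 8 rose and 1 fell with both LFAI groups against both media with PD325901 (25.3% of all genes called), with a median log2 of 0.85 beside -0.017 over all genes. Dusp6 was 10.9-fold higher (adjusted p = 1.4e-05) and Spry4 20.2-fold higher (adjusted p = 6.9e-05). In single comparisons with L2i, 6 rose and 1 fell at 35 h (14.5% of all genes called), and 5 and 1 at 4 days (44.8%). Against LIM, 4 rose and 0 fell at 35 h (6.38%), and 7 and 1 at 4 days (29.5%). From 35 h to 4 days, 4 rose and 4 fell (36.8%). In LIM against L2i, where the inhibitor was present throughout, 3 rose and 2 fell, with Dusp6 2.96-fold higher (adjusted p = 0.0021). Of 15 other immediate early genes tested, 5 rose and 1 fell in LIM against L2i, beside 19.1% of all genes called. At 35 h 3 rose and 0 fell, beside 14.5%, and at 4 days 9 rose and 2 fell, beside 44.8%. Fosl2, another AP-1 gene, was at 0.34 CPM in L2i, 6.82 in LIM, 0.879 at 35 h and 13.8 at 4 days, and it fell from LIM to 35 h (log2 -2.95 ± 0.52, adjusted p = 0.017). Myc, a growth factor target, rose from L2i 3.02-fold in LIM (adjusted p = 0.0082), 4.5-fold at 35 h (0.0028) and 9.24-fold at 4 days (9.7e-05).

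The SRF and actin target genes were, like Jun, high in LIM and at 4 days in the set with both lines. Their summed level was 793 and 986 CPM in L2i, 2730 and 1690 in LIM, 931 and 1050 at 35 h, and 4050 and 2930 at 4 days (R1 first). Of 10 tested, 7 rose in LIM against L2i, 8 fell at 35 h against LIM, and all 10 rose at 4 days against L2i and against 35 h. Over all genes, 11.3% were higher in the first of these comparisons, 4.46% lower in the next, and 21.5% and 17.7% higher in the last pair. Myl9, a myosin light chain of smooth muscle, was at 0.102, 15.9, 0.26 and 41.2 CPM in that order of groups. The time course did not show the same pairing. In LIM the summed level went from 994 CPM at day 0 to 1190, 1210, 1310 and 1310 on days 1 to 4 while Jun was flat, and in LFAI it was 1180, 880, 974 and 1410, so that on day 3, with Jun at 7.43 CPM, it was below day 0. The fibroblast markers summed to 3.95 and 3.52 CPM in L2i, 12 and 25.9 in LIM, 7.76 and 7.73 at 35 h, and 13.5 and 18.1 at 4 days, with Thy1 at up to 19.8 CPM. Of the 5 fibroblast markers tested, 2 rose and 0 fell in LIM, and 3 rose and 1 fell at 4 days, against L2i. Thy1 rose 7.42-fold in LIM (adjusted p = 0.013) and 5.67-fold at 4 days (0.0099), and Col1a2 6.78-fold at 4 days (0.0061). The marker that fell at 4 days was Pdgfra, 17.5-fold (adjusted p = 0.0031), the smallest p of the list there. The trophoblast markers summed to 123 and 114 CPM in L2i, 159 and 114 in LIM, 22 and 27.5 at 35 h, and 364 and 121 at 4 days. Of the 6 tested, 2 rose and 2 fell in LIM, and 2 rose and 3 fell at 4 days, against L2i. The keratin genes Krt18 and Krt8 rose, 21.6-fold and 7.07-fold in LIM and 74.4-fold and 18.3-fold at 4 days (adjusted p = 0.0011, 0.014, 5.6e-05 and 0.00097), the same groups in which Jun was high. The time course did not show the rise in LIM. There Krt18 went from 4.17 CPM at day 0 to 2.65 on day 4 of LIM and 23.9 on day 4 of LFAI. Krt8 went from 14 CPM to 3.02 and 14.5. Cdx2, a defining trophoblast factor, was at 0 in 4 of the 8 libraries with both lines. Against L2i, it and Tfap2c fell both in LIM and at 4 days. The part of these genes or of other cells in the change of Jun was not tested. Of the heat shock and handling genes, 1 of 10 rose and 0 fell in LIM (19.1% of all genes called), and 0 rose and 2 fell at 4 days (44.8%), each against L2i.

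Of the regulators of these genes, Cic is the repressor that ERK signalling relieves at Etv loci. Compared with L2i in edgeR, it was 1.62-fold lower at 35 h (adjusted p = 0.037) and 1.91-fold lower at 4 days (adjusted p = 0.0037). LIM did not pass against L2i (log2 -0.49, 0.097). Against LIM, Cic passed neither at 35 h (log2 -0.21, adjusted p = 0.57) nor at 4 days (log2 -0.44, adjusted p = 0.1). Its partner Atxn1l was 3.93-fold higher in LIM (adjusted p = 0.0039) and 6.38-fold higher at 4 days than in L2i (adjusted p = 0.00028). Srf rose 2.4-fold at 4 days (adjusted p = 0.00024), and Nab1, a co-repressor that binds Egr proteins, 3.2-fold (adjusted p = 0.0011). Of 11 regulators tested, 5 rose and 2 fell at 4 days against L2i, beside 44.8% of all genes called. Of 15 other ETS genes tested, 0 rose and 4 fell with both LFAI groups against both media with PD325901, among them Elf3, 5.37-fold lower (adjusted p = 0.00017). Of the 21 genes from FGF ligands to ERK targets, 4 rose and 4 fell in that comparison, of 9 LIF and STAT3 targets 0 rose and 6 fell, and of 11 Wnt targets 1 rose and 6 fell. These counts stand beside 10.3% of all genes higher and 15.0% lower.

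**Figure D5:**
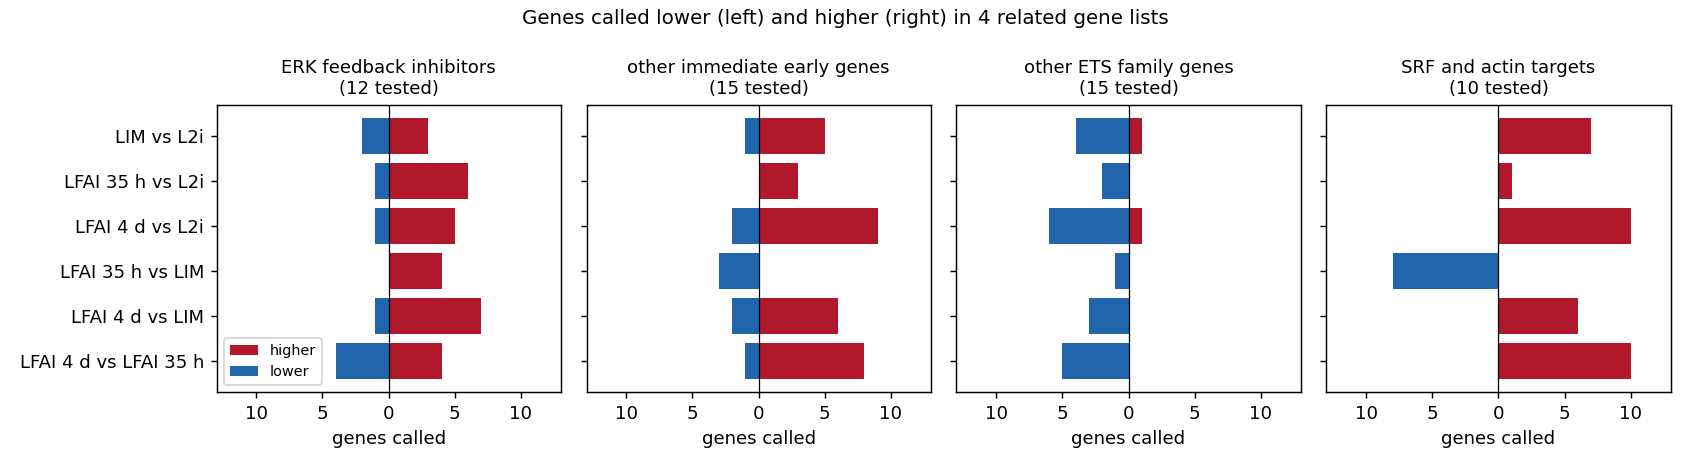
Number of genes called lower (blue, left) and higher (red, right) by an adjusted p of 0.05 in 4 related gene lists, for 6 comparisons. SRF and actin targets are called higher in LIM and at 4 days of LFAI and lower at 35 h against LIM.

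Across the 8 libraries the genes with the most similar log2 profile were Snx24 for Etv1 (Pearson r = 0.973), Ly6e (0.985) and Smad7 (0.962) for Etv4, Med18 (0.985) and Fgf4 (0.983) for Etv5, Xpo7 for Egr1 (0.995), Jakmip2 for Jun (0.989), Kif23 for Fos (0.95) and Rnf19a for Ier3 (0.961). These are descriptions over 8 points that share groups, lines and libraries, taken from 10242 genes with at least 5 CPM on average. Fgf4 encodes the ligand that drives ERK signalling in ES cells, and a link between it and Etv5 was not tested. In the time course Fgf4 went from 205 CPM at day 0 to 473 on day 4 of LIM and 189 on day 4 of LFAI. Etv5 went from 617 CPM to 713 and 487. Among the members Fosl1 and Jun went together (r = 0.88), as did Egr1 and Junb (0.87), and Fosl1 and Junb (0.87). The lowest values were -0.94 for Etv5 and Egr2, -0.91 for Etv4 and Fos, and -0.85 for Etv5 and Jun. Egr2 and Fosl1 passed the filter on low counts only through both 4-day libraries. Their values with genes high or low at 4 days were thus partly built in, and are no support for a shared pattern.

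Fosl1, Jun and Junb share exonic bases with a gene on the opposite strand, and the strand setting of the counting is not given in the sources used here. Fosl1 shares 1163 bases with Ccdc85b, which was at 6.16 CPM in L2i and 11.6 at 4 days. Jun shares 232 bases with Junos, which stayed below 1 CPM on average in all groups (0.163 to 0.644). Junb shares 173 bases with Prdx2, which was at 318 CPM in L2i and 429 at 4 days. If strand was not used, Fosl1 and Junb reads could include some from these neighbours, or be dropped as ambiguous.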

How the data were processed

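The authors deposited raw read counts for each Ensembl gene of 17 libraries (8 with both lines, 9 of the time course). The authors aligned reads with HISAT2 2.0.4 to GRCm38 (mm10), counted with HTSeq 0.6.1 and named DESeq2 1.10.1, per the submitters' processing notes. Libraries were stranded mRNA libraries per the labels' protocols. The strand setting and annotation release of the counting are not given in the sources used here. The 5 summary entries that name no gene (47.7 to 51.9% of reads in the set with both lines, 48.2 to 51.2% in the time course) were left out, and 47310 of 47729 genes (99.12%) matched GENCODE M21.

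The 8 libraries with both lines were fitted together in edgeR 4.0.16 (R 4.3.3) with TMM scaling (0.964 to 1.033), filterByExpr and the quasi-likelihood test without a block, with 4 residual degrees of freedom. Benjamini-Hochberg adjustment ran over 15525 genes, in two-sided tests, and calls needed an adjusted p below 0.05. Replicate 1 is R1 and 2 is CGR8 in every group, so the numbers pair by cell line. Line differences correlated between groups at 0.04 to 0.4. The design text calls the lines biological replicates. With n = 2, p-values measure the spread between 2 lines.

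The 9 time course libraries were scaled separately (log2 CPM, prior count 2, 15682 genes at 1 CPM or more in any library), with a 2-fold threshold and 95% counting intervals, and a member at 3 counts or fewer in both libraries was not counted. Counting intervals and shares cover counting error only, since reads are not independent molecules. The alternatives were DESeq2 size factors, no filter, limma-voom (limma 3.58.1), DESeq2's Wald test (1.42.0), the line as block, only the groups compared, each library left out, and the time course added. For the time course they were other prior counts, scalings and fold thresholds. The script was tested on simulated data.

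The text names all 10 members, up to 4 genes of each other list by smallest p, and for similar profiles genes among the closest 3 with a mean of 5 CPM or more. Genes and lists were chosen with earlier results of these data known. A planned comparison of protein sequences was not run.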

Additional observations from a re-analysis of the deposited data

Results flagged for a closer look

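In 7 members the change from L2i at 4 days of LFAI differed from that at 35 h, tested as LFAI at 4 days against 35 h with edgeR. The difference between the changes was 3.74 log2 units for Egr1, 4.34 for Egr2, 3.03 for Fosl1, 3.59 for Jun and 1.45 for Junb, higher at 4 days. It was -0.77 for Etv1 and -0.91 for Etv5, lower at 4 days. Egr2 and Fosl1 rest on 25 and 60 summed counts at 4 days and passed the filter on low counts only through both 4-day libraries, so their difference was built into the testing and is no support for the other 5. With Etv1, Egr2 and Fosl1 the call was lost on leaving out any 1 of the 4 libraries compared.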

How the results depend on the processing

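No member reversed its direction after being called, under any alternative run. In the set with both lines, the number of members called was 3 in LIM against L2i (2 to 3 with each library left out in turn) and 3 at 35 h against LIM (3 to 3). It was 4 for both LFAI groups against both media with PD325901 (4 to 5). At 35 h against L2i it was 2 (1 to 4), with 4 without a filter on low counts and 1 in limma-voom. At 4 days it was 9 against L2i (4 to 9), 6 against LIM (2 to 6) and 7 against 35 h (3 to 7). The replicate block, in which the lines pair the libraries, gave 3 members in LIM against L2i, 2 at 35 h and 9 at 4 days, and of the calls of members it changed that of Junb in both LFAI groups against both media with PD325901 and no other. Over all genes, the calls at 35 h against LIM went from 990 to 2205 without a filter, 1710 with DESeq2, 1489 with the block, 613 with only those groups and 215 to 1012 with a library left out. Leaving out a library gave 1487 to 2821 of 2962 calls in LIM against L2i, 876 to 2152 of 2252 at 35 h against L2i, 2093 to 4448 of 4584 at 4 days against LIM, 3344 to 5676 of 5707 at 4 days against 35 h and 2535 to 3423 of 3928 for both LFAI groups.

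In the time course with a 1.5-fold threshold, 3 members passed on day 1 of LFAI against day 0, and 3, 5 and 4 on days 1, 3 and 4 of LIM. With a 4-fold threshold, 1, 2 and 3 passed on days 2, 3 and 4 of LFAI against day 0, and 0, 0, 0 and 0 on days 1 to 4 of LIM. For LFAI against LIM they were 0, 1 and 3 on days 1, 3 and 4. With a prior count of 8, 0 and 1 members passed on days 1 and 4 of LIM against day 0, and 0 on day 1 of LFAI against LIM. The depth limits Egr2, Fosl1 and Fos most, with at most 25, 60 and 93 summed counts in any group.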
